A study of Mus musculus with 12 samples.

Results

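Ketone bodies, acetoacetate and 3-hydroxybutyrate, are fuels that the liver makes from fatty acids and that the heart oxidises. In heart mitochondria 3-hydroxybutyrate dehydrogenase turns 3-hydroxybutyrate into acetoacetate, a CoA transferase takes CoA from succinyl-CoA to make acetoacetyl-CoA, and a thiolase splits that into acetyl-CoA for the citric acid cycle. The genes described are those of these steps and of their close relatives: Bdh1, Bdh2, Oxct1, Acat1 and Aacs. These 5 genes, of 51912 gene IDs in the table, were taken by symbol from a list of ketone synthesis and use genes. All 5 were found, and 4 of them passed the filter on low values (at least 10 normalised reads in at least 3 libraries), as did 13865 genes in all. Bdh2 did not pass it.

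The 12 libraries were made from total RNA of freshly taken mouse ventricles, 3 each of LCHADD females, WT females, LCHADD males and WT males. LCHADD is deficiency of long-chain 3-hydroxyacyl-CoA dehydrogenase, a step of mitochondrial long-chain fatty acid oxidation, and WT is wild type. The labels state that no treatment was given, and they name no allele, strain, age or pooling of animals. Nothing in them says that the 3 libraries of a group came from separate animals, so p-values measure the spread between these libraries, which may be technical. A normalised read is a read count divided by the authors' size factor for the library, and the libraries held 15613668 to 23174936 reads.

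Mitochondrially encoded genes took 31.0 to 37.9% of the reads in LCHADD libraries and 27.5 to 32.7% in WT libraries. The labelled tissue was checked with 7 cardiomyocyte markers (Myh6, Actc1, Tnnt2, Tnni3, Myl2, Ryr2 and Pln), all of them detected in every group. Their summed level was 500682 to 770595 normalised reads in LCHADD females and 935027 to 1004702 in WT females, against 775302 to 879013 in LCHADD males and 934146 to 1002614 in WT males. In females 6 of the 7 fell and in males 1 fell. Of all tested genes 17.2% fell and 16.7% rose in females, and 7.77% fell and 7.71% rose in males. Of 6 fibroblast markers 6 fell in females and 1 in males, of 5 endothelial markers 3 fell in each sex, of 3 erythroid markers 3 fell in each sex, and of 5 macrophage markers 2 rose in females and 0 changed in males. Hepatocytes, the main source of ketone bodies, left no more than 9.84 summed normalised reads of 4 markers in any library, with Alb and Serpina1a at 0 in all. In ventricle tissue fewer cells of a type and less RNA per cell cannot be told apart.

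Per length of exon, the genes of ketone use covered a wide range of levels, in the order of the oxidation machinery first. Oxct1, the succinyl-CoA:3-ketoacid CoA transferase that commits ketone bodies to oxidation, had 6503 ± 794 normalised reads per kb of exon in LCHADD females and 7322 ± 621 in WT females, and 8160 ± 241 in LCHADD males and 7915 ± 98.6 in WT males (SD, n = 3 each). Acat1, the mitochondrial acetoacetyl-CoA thiolase, followed with group means of 2442 to 3523 per kb, and Bdh1, the mitochondrial 3-hydroxybutyrate dehydrogenase, with group means of 729 to 1195 per kb. Aacs, the cytosolic acetoacetyl-CoA synthetase that sends acetoacetate to lipid synthesis, had group means of 13.7 to 19.5 per kb. Bdh2, a cytosolic dehydrogenase known for making an iron-binding siderophore, had at most 1.24 per kb in any library. This order was the same in all 4 groups, and the libraries of neighbours in it did not overlap. The testis-type transferases Oxct2a and Oxct2b had 0 reads in all 12 libraries.

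**Figure D1:**
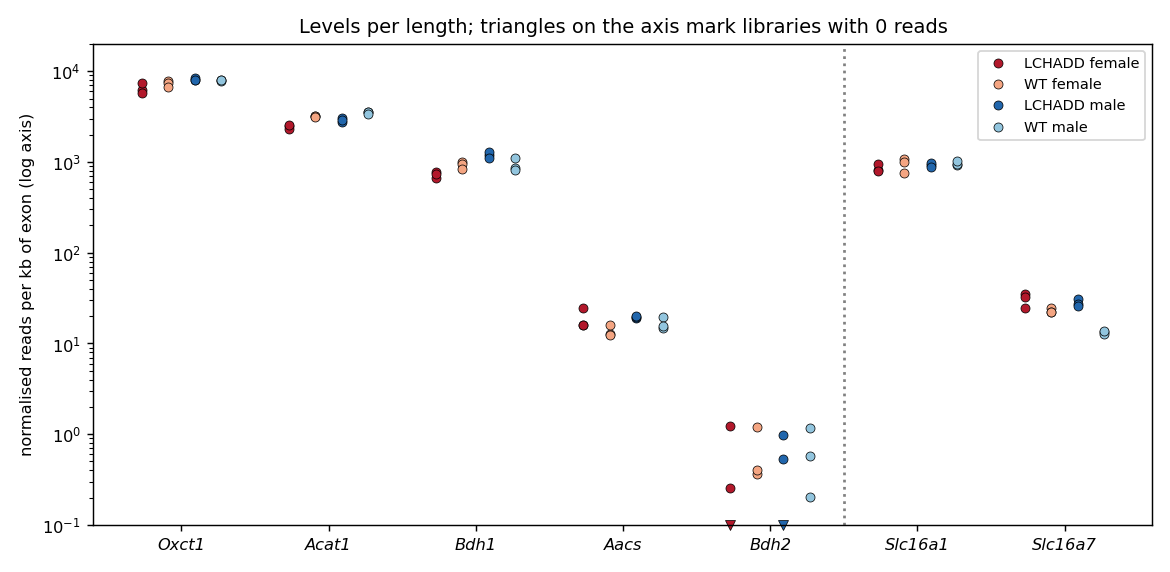
Normalised reads per kb of exon (log axis) of the 5 ketone body genes, left of the dotted line, and of the carrier genes Slc16a1 and Slc16a7, right of it. Each point is a library, coloured by group, and triangles on the axis mark libraries with 0 reads. Oxct1, Acat1 and Bdh1 stand far above Aacs and Bdh2 in every group.

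Of the 4 genes that could be tested, 0 rose and 2 fell in females, where 33.8% of all tested genes were called (16.7% higher and 17.2% lower). In males 1 rose and 1 fell, where 15.5% were called (7.71% higher and 7.77% lower). Averaged over the sexes 0 rose and 1 fell, where 40.8% were called (20.3% higher and 20.6% lower). A gene was called at an adjusted p under 0.05 by limma, a linear model fitted to log2 values across all genes, with Benjamini-Hochberg adjustment over the 13865 tested genes. Scaling by nuclear reads called 2884 genes higher and 1953 lower in females, against 2314 and 2378 with the authors' scaling. The median log2 change of the 4 genes was -0.27 in females and 0.14 in males, beside medians of 0.00 over all tested genes in each sex. The male median is the midpoint of Oxct1 (0.04) and Aacs (0.24), neither of which passed. The called genes in males went opposite ways, Bdh1 by 0.38 and Acat1 by -0.29. LCHADD and WT libraries did not overlap for 3 of the 4 in females, 2 lower and 1 higher, as for 44.5% of all tested genes (22.3% lower and 22.2% higher). In males they did not overlap for 2 of the 4, 1 lower and 1 higher, as for 38.9% (19.3% lower and 19.6% higher).

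Bdh1 (ENSMUSG00000046598, chromosome 16) differed from WT in opposite directions in the 2 sexes. In females it had 2583, 3027 and 2898 normalised reads in LCHADD libraries 1, 2 and 3, against 3901, 3733 and 3291 in WT libraries. Every LCHADD female library was below every WT female library, and the ratio of means was 0.779. The log2 change, LCHADD minus WT, was -0.36 (SE 0.11, limma adjusted p = 0.021). In males Bdh1 had 4692, 4964 and 4281 normalised reads in LCHADD libraries 1, 2 and 3, against 3302, 3149 and 4348 in WT libraries. The male groups overlapped, since WT male 3 lay above LCHADD male 3, and the ratio of means was 1.29. The log2 change was 0.38 (SE 0.11, limma adjusted p = 0.031).

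Both calls of Bdh1 were near the threshold and depended on single libraries. The fall in females was lost without LCHADD female 1 (log2 change -0.29, adjusted p = 0.090), WT female 1 (-0.31, adjusted p = 0.088) or WT female 2 (-0.34, adjusted p = 0.068), and with scaling by nuclear reads (-0.29, adjusted p = 0.052). The rise in males was lost without LCHADD male 1 (0.37, adjusted p = 0.095), LCHADD male 2 (0.33, adjusted p = 0.11), WT male 1 (0.33, adjusted p = 0.13) or WT male 2 (0.29, adjusted p = 0.14). It was also lost, narrowly, in the fit with a block for replicate number, given further below. The direction in each sex was the same in all 23 alternatives. Averaged over the sexes the change of Bdh1 was 0.01 (SE 0.08, limma adjusted p = 0.93), with a 95% interval from -0.16 to 0.18.

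The difference between the sexes was tested directly. The genotype change of Bdh1 in females minus that in males was -0.74 on the log2 scale (SE 0.16, 95% interval -1.08 to -0.40, unadjusted p = 0.00029 by limma). It did not pass over all genes (limma adjusted p = 0.14), where only Acta1, the skeletal muscle actin gene named here because it was the single call, passed (1 of 13865, 0.00721%). By unadjusted p Bdh1 ranked 26 among the 13865 genes for this interaction. DESeq2, which called 126 genes for it, gave Bdh1 a difference of -0.72 (adjusted p = 0.0038). Bdh1 also passed by limma without LCHADD female 3 (-0.76, adjusted p = 0.033), where 186 genes were called. Of 22 alternatives, the interaction of Bdh1 passed in 3 and did not pass in 19, with adjusted p-values of up to 0.44.

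Between the sexes of 1 genotype, Bdh1 was lower in LCHADD females than in LCHADD males. The means were 2836 ± 229 normalised reads in LCHADD females and 4646 ± 344 in LCHADD males (SD, n = 3 each), and no libraries overlapped. The log2 difference, female minus male, was -0.71 (SE 0.11, limma adjusted p = 0.0020), and it passed in all 22 alternatives, with values from -0.77 to -0.65. In WT mice the means were 3641 ± 315 in females and 3600 ± 653 in males (log2 difference 0.03, SE 0.11, adjusted p = 0.98, 95% interval -0.21 to 0.27). Of all tested genes 5.77% were called between LCHADD females and LCHADD males (2.65% higher and 3.12% lower in females) and 0.245% between WT females and WT males (0.0938% higher and 0.151% lower).

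**Figure D2:**
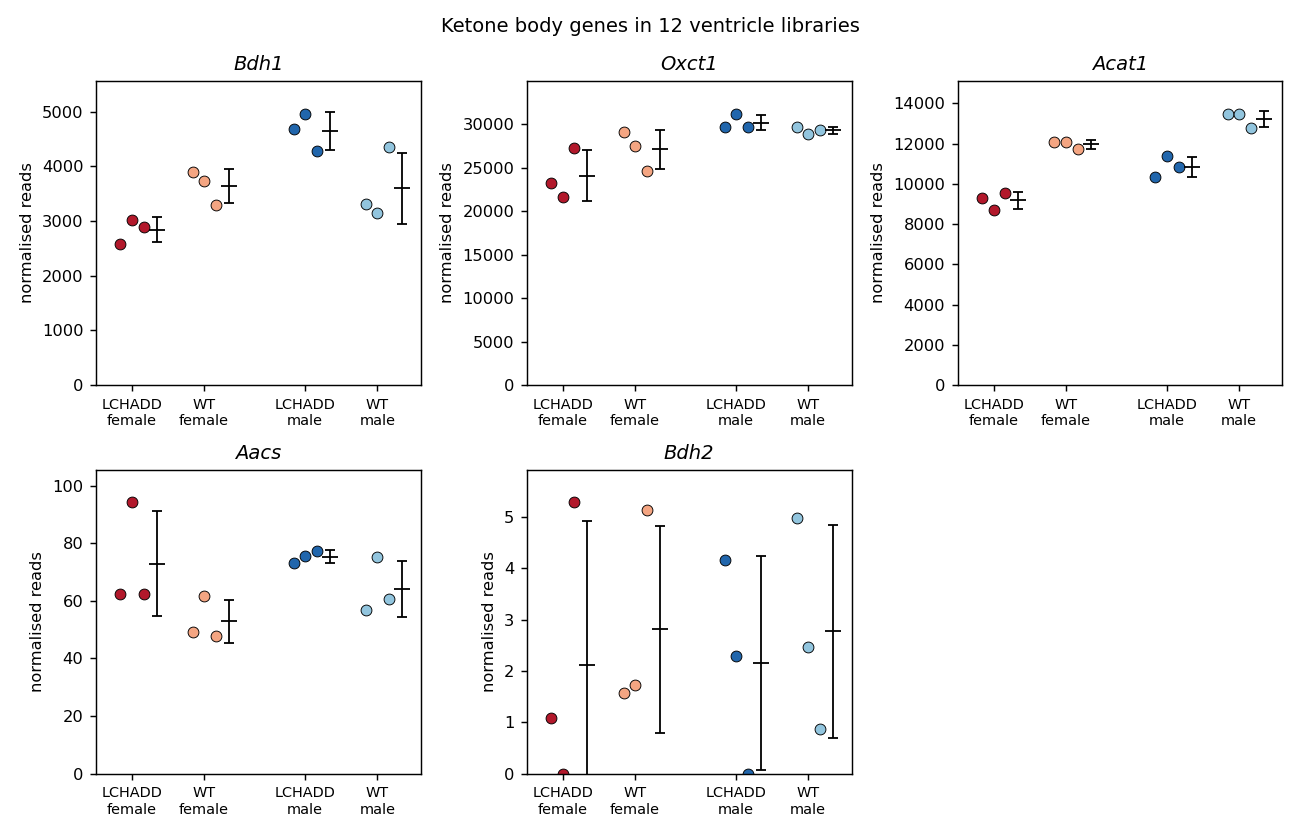
Normalised reads of the 5 ketone body genes in each of the 12 libraries. Points are libraries, and the bar beside each group is its mean with SD (n = 3). Each axis starts at 0 and has its own scale. Bdh1 is lower in LCHADD than in WT among females and mostly higher among males, and Acat1 is lower in LCHADD in both sexes.

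RefSeq lists 2 start sites for mouse Bdh1 in its GRCm38.p6 tables, and a count per gene does not tell which of them was used. The 250 bases before each start, on the + strand, are shown because Bdh1 is the member whose change differed most between the sexes. The upstream start lies after chr16:31422047-31422296 and the downstream start after chr16:31428503-31428752.
Bdh1 upstream start: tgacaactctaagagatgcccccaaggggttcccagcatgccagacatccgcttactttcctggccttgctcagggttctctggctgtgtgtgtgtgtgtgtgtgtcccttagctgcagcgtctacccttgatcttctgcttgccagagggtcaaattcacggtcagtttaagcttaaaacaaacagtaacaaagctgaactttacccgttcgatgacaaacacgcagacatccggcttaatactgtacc
Bdh1 downstream start: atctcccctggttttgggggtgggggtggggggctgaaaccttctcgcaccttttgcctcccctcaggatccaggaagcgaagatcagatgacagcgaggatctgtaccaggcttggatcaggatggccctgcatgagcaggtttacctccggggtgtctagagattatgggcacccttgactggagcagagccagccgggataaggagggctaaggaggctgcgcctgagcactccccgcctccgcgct
Both windows were searched on both strands for the nuclear receptor motif AGGTCA, the estrogen-related receptor site that extends it by 3 bases, the estrogen response element (GGTCA and its inverted repeat, 3 bases apart, which can overlap AGGTCA), the androgen response element (AGAACA and its inverted repeat, 3 bases apart), the ATF4 and C/EBP element TGATGNAA, CCAAT and GGGCGG. Neither window held any of them, so no letters are in capitals. Of 32851 RefSeq promoter windows of this length, 14.0% held AGGTCA, 0.387% the estrogen-related receptor site, 0.0639% the estrogen element, 0.00913% the androgen element, 3.45% the ATF4 and C/EBP element, 33.8% CCAAT and 32.7% GGGCGG. In the windows of the other members in that table (Bdh2, Oxct1 and Aacs) the single match was a CCAAT before Bdh2. The downstream window was richer in G and C, at 60.8%, than the upstream window, at 49.6%.

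Acat1 (ENSMUSG00000032047, chromosome 9) fell in both sexes. Besides splitting acetoacetyl-CoA it catalyses the last step of isoleucine breakdown. In females it had 9320, 8691 and 9523 normalised reads in LCHADD libraries 1, 2 and 3, against 12078, 12101 and 11723 in WT libraries. The LCHADD female libraries were all below the WT female libraries, and the log2 change was -0.38 (SE 0.07, limma adjusted p = 0.00038). In males it had 10332, 11369 and 10825 normalised reads in LCHADD libraries, against 13451, 13495 and 12775 in WT libraries. Again no libraries overlapped, and the log2 change was -0.29 (SE 0.07, limma adjusted p = 0.0075). The ratio of means was 0.767 in females and 0.819 in males. The change of Acat1 in females minus that in males was -0.09 (SE 0.09, adjusted p = 0.78, 95% interval -0.29 to 0.10). Its fall passed in all 23 alternatives in each sex, from -0.41 to -0.32 in females and from -0.32 to -0.25 in males. The adjusted p was at most 0.0072 in females, but in males it came close to the threshold, at 0.046 in a limma fit without 1 library. The summed cardiomyocyte markers were lower in LCHADD than in WT libraries of both sexes, and their part in the result was not tested.

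Oxct1 (ENSMUSG00000022186, chromosome 15) did not pass in either sex. In females it had 23280, 21604 and 27323 normalised reads in LCHADD libraries 1, 2 and 3, against 29149, 27535 and 24614 in WT libraries. LCHADD female 3 lay within the WT range and the other 2 below it. The log2 change was -0.17 (SE 0.09, limma adjusted p = 0.15, 95% interval -0.36 to 0.01), and without LCHADD female 3 it was -0.27 (adjusted p = 0.014). In males it had 29665, 31229 and 29706 normalised reads in LCHADD libraries, against 29631, 28907 and 29348 in WT libraries. All LCHADD male libraries were above the WT male libraries, by a ratio of means of 1.03. The margin was thin, 29665 in LCHADD male 1 against 29631 in WT male 1. The log2 change was 0.04 (SE 0.09, adjusted p = 0.79), with a 95% interval from -0.15 to 0.23. Between the sexes of LCHADD mice, Oxct1 was lower in females by -0.33 on the log2 scale (SE 0.09, limma adjusted p = 0.040) and Acat1 by -0.24 (SE 0.07, limma adjusted p = 0.043). Both of these calls were weak. That of Oxct1 was lost in 10 of the 12 fits that leave out 1 library, all but those without LCHADD female 3 or WT female 3, and that of Acat1 in 11 of the 12, all but that without LCHADD female 3. Their adjusted p-values in these fits reached 0.17 for Oxct1 and 0.20 for Acat1. In WT mice the ratio of means, females over males, was 0.925 for Oxct1, where libraries overlapped, and 0.904 for Acat1. All WT female libraries of Acat1 were below the WT male libraries. In LCHADD mice these ratios were 0.797 and 0.847. For neither gene did the genotype change differ between the sexes over all genes (limma unadjusted p = 0.10 for Oxct1 and 0.32 for Acat1).

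Aacs (ENSMUSG00000029482, chromosome 5) was scarce in all groups and did not pass. It had 62.3, 94.2 and 62.3 normalised reads in LCHADD females, against 49.3, 61.6 and 47.9 in WT females, and 72.9, 75.6 and 77.4 in LCHADD males, against 56.8, 75.2 and 60.5 in WT males. The female groups did not overlap, by less than 1 normalised read, and the male groups did. The log2 change in females was 0.44 (SE 0.20, limma adjusted p = 0.10), that in males was 0.24 (SE 0.20, adjusted p = 0.46), and their average was 0.34 (SE 0.14, adjusted p = 0.067). Without LCHADD female 2 the female change was 0.24 (adjusted p = 0.41), and without WT male 1 the male change was 0.16 (adjusted p = 0.72). The average passed without LCHADD female 3 (0.39, adjusted p = 0.046) and without WT male 2 (0.40, adjusted p = 0.047).

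Bdh2 (ENSMUSG00000028167, chromosome 3) was near the limit of detection. Single LCHADD female libraries held 1, 0 and 5 reads and WT female libraries 2, 2 and 6, while LCHADD male libraries held 4, 2 and 0 and WT male libraries 5, 2 and 1. Summed over 6 libraries a genotype, 12 reads in LCHADD stood against 18 in WT, a ratio of normalised reads of 0.782. The exact (Clopper-Pearson) 95% interval of this ratio, which covers counting error only, ran from 0.344 to 1.72, so no difference was detectable at this depth.

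Ratios of reads within a library, a measure chosen after the data were seen, cannot be moved by the scaling of libraries. Acat1 had 40.0, 40.2 and 34.9 reads per 100 Oxct1 reads in LCHADD females, against 41.4, 43.9 and 47.6 in WT females, and 34.8, 36.4 and 36.4 in LCHADD males, against 45.4, 46.7 and 43.5 in WT males. The ratio was lower in every LCHADD library than in every WT library of the same sex. Averaged over the sexes the log2 difference was -0.27 by a two-sided exact permutation test within sex (p = 0.005, the smallest that its 400 arrangements can give, or 0.045 after Benjamini-Hochberg adjustment over 9 ratio comparisons). Within 1 sex the exact permutation test of 3 against 3 libraries cannot go below p = 0.1, which the Acat1 to Oxct1 ratio reached in both.

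Bdh1 had 45.4, 43.7 and 39.6 reads per 100 Acat1 reads in LCHADD males, against 24.5, 23.3 and 34.04 in WT males. In females the same ratio was 27.7, 34.8 and 30.4 in LCHADD libraries, against 32.3, 30.8 and 28.1 in WT libraries. The male groups were apart (log2 difference 0.67, exact permutation p = 0.1, adjusted 0.18) and the female groups overlapped (log2 difference 0.02, exact permutation p = 1). Bdh1 per 100 Oxct1 reads averaged 11.9 ± 1.84 in LCHADD females and 13.4 ± 0.104 in WT females, and 15.4 ± 0.835 in LCHADD males and 12.3 ± 2.20 in WT males (SD, n = 3 each). Neither of these Bdh1 to Oxct1 differences reached the smallest p of the design (exact permutation p = 0.4 in females and 0.2 in males).

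**Figure D3:**
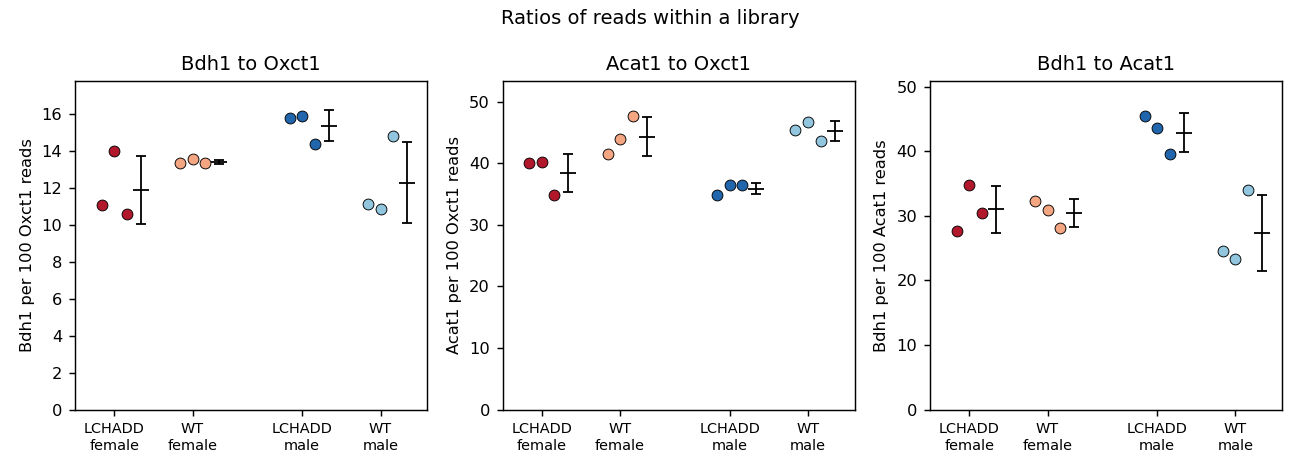
Reads of 1 gene per 100 reads of another in the same library, for Bdh1 to Oxct1, Acat1 to Oxct1 and Bdh1 to Acat1. Points are libraries, and bars are the group mean with SD (n = 3). Acat1 to Oxct1 is lower in LCHADD than in WT libraries of the same sex, and Bdh1 to Acat1 is set apart in LCHADD males, at 39.6 to 45.4.

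Ketone bodies cross membranes through monocarboxylate carriers, which chaperones bring to the membrane. Of 6 tested genes, 4 carriers and 2 chaperones, 2 rose in females (the carrier Slc16a7 and the chaperone Bsg), 1 rose in males (Slc16a7) and 0 fell in either sex. Over all tested genes 16.7% rose and 17.2% fell in females, and 7.71% rose and 7.77% fell in males. Slc16a7, the carrier MCT2, had 420, 292 and 387 normalised reads in LCHADD females, against 290, 261 and 264 in WT females, and 362, 324 and 305 in LCHADD males, against 156, 150 and 161 in WT males. No libraries overlapped within a sex. In females the log2 change was 0.41 (SE 0.13, limma adjusted p = 0.021), and in males it was 1.07 (SE 0.13, limma adjusted p = 6.6e-05). The difference between these changes did not pass (-0.66, adjusted p = 0.24). The female call was lost without LCHADD female 1 (0.31, adjusted p = 0.11), LCHADD female 3 (0.37, adjusted p = 0.058), WT female 2 (0.39, adjusted p = 0.070) or WT female 3 (0.40, adjusted p = 0.063), and in the female libraries alone (adjusted p = 0.072).

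Slc16a1, the carrier MCT1, averaged 3779 ± 391 normalised reads in LCHADD females and 4165 ± 708 in WT females, and 4105 ± 239 in LCHADD males and 4278 ± 210 in WT males (SD, n = 3 each). It did not pass in females (log2 change -0.13, limma adjusted p = 0.39) or in males (-0.06, adjusted p = 0.76), and averaged over the sexes it was -0.10 (adjusted p = 0.35). The female value rested on single libraries, from -0.03 without WT female 1 (adjusted p = 0.86) to -0.28 without WT female 3 (adjusted p = 0.037), and it was -0.36 without both WT female 3 and LCHADD female 2 (adjusted p = 0.0019). The average passed in the same 2 settings (-0.17, adjusted p = 0.044, and -0.21, adjusted p = 0.0027).

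Bsg, the chaperone basigin, had 26445, 23113 and 23436 normalised reads in LCHADD females, against 21013, 20770 and 19485 in WT females, and 23203, 20485 and 25162 in LCHADD males, against 18971, 19790 and 19011 in WT males. No libraries overlapped within a sex. It rose by 0.25 in females (limma adjusted p = 0.030), while the same size of change in males did not pass (adjusted p = 0.056, SE 0.08 each). In females the call of Bsg was lost without LCHADD female 1 (0.19, adjusted p = 0.13), WT female 1 (0.27, adjusted p = 0.053), WT female 2 (0.26, adjusted p = 0.062) or WT female 3 (0.22, adjusted p = 0.0997), without a filter (adjusted p = 0.089) and in the female libraries alone (adjusted p = 0.068). In males Bsg passed in 8 of 23 alternatives, among them those without LCHADD female 2 (0.25, adjusted p = 0.023), LCHADD female 3 (0.25, adjusted p = 0.038) or LCHADD male 2 (0.33, adjusted p = 0.020), and adjusted p-values ran from 0.016 to 0.20. Averaged over the sexes it rose by 0.25 (SE 0.06, limma adjusted p = 0.0033), which passed in all 22 alternatives. Averaged over the sexes Slc16a6 (0.30, SE 0.16), Slc16a3 (0.00, SE 0.32) and the chaperone gene Emb (-0.15, SE 0.28) did not pass, and Slc5a8 had 1 read in all.

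**Figure D4:**
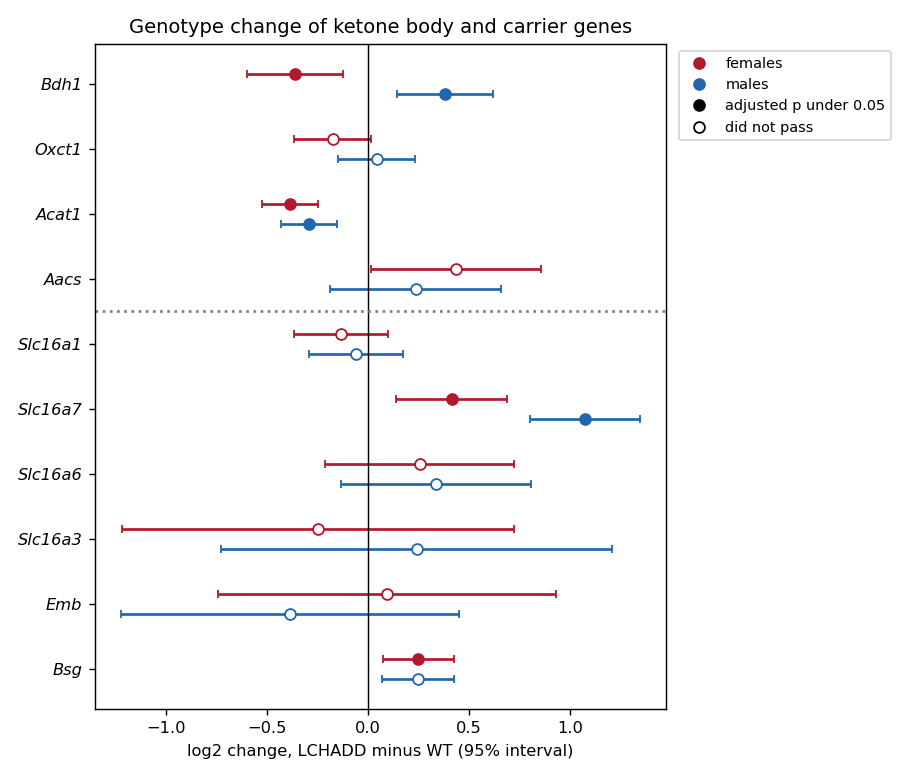
Log2 change, LCHADD minus WT, of 4 ketone body genes, above the dotted line, and of carrier genes and their chaperones, below it, with 95% intervals of the limma fit. Females are drawn above males for each gene, and filled points passed at an adjusted p under 0.05. Bdh1 stands at -0.36 in females and 0.38 in males, and Acat1 lies left of 0 in both.

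Among the 8 thiolase genes 6 were tested, and 1 rose and 3 fell in females and 1 rose and 2 fell in males. Hadhb, which carries the long-chain thiolase of the trifunctional protein and is named as the single gene that rose, rose by 0.24 in females and 0.27 in males on the log2 scale (SE 0.07 each). Scp2, a peroxisomal thiolase and sterol carrier, fell by 0.59 and 0.36 on the same scale (SE 0.08 each), and Acaa2, the mitochondrial medium-chain thiolase, changed by -0.56 in females and by -0.25, which did not pass, in males. The cytosolic Acat2 did not pass in the mean of both sexes (-0.07, SE 0.16), and its near copy Acat3 had 1 read in 12 libraries. How reads that match both genes were counted is not given in the sources used here. In isoleucine breakdown 0 of 9 genes rose, 7 fell in females and 2 fell in males. Acat1 itself is in both the thiolase and the isoleucine list. It is among the falls counted in females and is 1 of the 2 falls in males in each list. Beside the isoleucine and thiolase counts, 17.2% of all tested genes fell and 16.7% rose in females. The shares in males were 7.77% and 7.71%. Acadsb, the dehydrogenase of short branched chains, fell in both sexes, by 0.64 in females and 0.36 in males. Bckdk, the kinase that restrains the branched-chain dehydrogenase, changed by -0.47 in females and by -0.20, which did not pass, in males. Hsd17b10, the step before Acat1, did not pass in the mean (0.10, SE 0.05), nor did the transaminase Bcat2 (0.11, SE 0.05).

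Oxct1 draws its CoA from succinyl-CoA, and the acetyl-CoA made enters the citric acid cycle. Of 8 genes that make or use succinyl-CoA or take in acetyl-CoA, 2 fell in females, 1 fell in males and 0 rose. Among all tested genes 17.2% fell in females and 7.77% in males, while 16.7% and 7.71% rose. Sucla2, a subunit of the ATP-forming succinyl-CoA ligase that competes for this substrate, fell by 0.46 in females and 0.30 in males on the log2 scale (SE 0.07 each), and Dlst, the succinyl-transferase of the 2-oxoglutarate dehydrogenase, changed by -0.40 in females and -0.21, which did not pass, in males. Ogdh did not pass in the mean of both sexes (0.00, SE 0.06). Of 8 genes listed around cytosolic acetyl-CoA and acetoacetyl-CoA, which make or use them and include Aacs, 2 fell in females and 1 in males. Fasn, fatty acid synthase, fell by 0.85 in females and 0.56 in males (SE 0.16 each), Acacb, the acetyl-CoA carboxylase of the outer mitochondrial membrane whose malonyl-CoA restrains fatty acid oxidation, changed by -0.40 in females and -0.07, which did not pass, in males, and Hmgcs1 and Acly did not pass in the mean of both sexes (0.06, SE 0.06 and -0.06, SE 0.08).

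The genes nearest to a member over the 12 libraries were found by the root mean square difference of log2 values, each gene centred on its own mean, among 10290 genes with a mean of at least 50. For Bdh1 they were Ogdh at 0.155, the catalytic subunit of the 2-oxoglutarate dehydrogenase that makes succinyl-CoA, and Cdan1 at 0.157, where the spread of Bdh1 about its own mean was 0.285. Ogdh averaged 43071 normalised reads in LCHADD females and 48601 in WT females, and 59566 in LCHADD males and 52978 in WT males, lower in LCHADD among females and higher among males, and it passed in neither sex (limma adjusted p = 0.12 and 0.18). For Oxct1 they were Glud1, glutamate dehydrogenase, at 0.0485 and Ap1b1 at 0.0581. For Acat1 they were Coq9, of coenzyme Q synthesis, at 0.0457 and Phyh, a peroxisomal enzyme, at 0.0491. For Aacs the nearest were Ascc3 at 0.116 and March5, a mitochondrial ubiquitin ligase, at 0.128. This likeness is a description over libraries that share genotype and sex groups.

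Antisense genes overlap 2 of the members, and the use of strand in the counting is not given in the sources used here. Gm15743, which shares 533 exon bases with Bdh1, averaged 36.9 ± 15.2 normalised reads in LCHADD females and 34.2 ± 10.2 in WT females, and 44.2 ± 8.75 in LCHADD males and 25.3 ± 5.05 in WT males (SD, n = 3 each). BC037032, which shares 467 with Oxct1, had group means of 105 to 154 normalised reads. In every group both were far below Bdh1 and Oxct1.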

How the data were processed

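The table of 12 mouse ventricle libraries was analysed whole, with 0 columns left unused. The authors deposited a signal per gene, the reads of a library scaled by its own size factor. The submitters' processing notes name bcl2fastq, DESeq2 and the build GRCm39. How reads were aligned and counted, with which annotation and on which strand, is not given in the sources used here. All values (100.0%) were whole multiples of 1 step per library within 0.01, so whole reads were recovered. Of 51912 IDs 51633 were matched to symbols of GENCODE M21, on build GRCm38, which also gave exon lengths and overlaps and no coordinates. Promoter sequences and their coordinates are those of RefSeq on GRCm38.p6, which listed 4 of the 5 members.

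Log2 of the value plus 1 was fitted with limma 3.58.1 (lmFit, eBayes with a trend, R 4.3.3), with 1 mean per group, for the 13865 genes with at least 10 in at least 3 libraries. These held 99.9% of the reads. Log2 changes carry the SE of the fit. The method was tested on simulated data with the same genotype change in both sexes, so detection of an interaction was not tested. Ratios were tested by exact permutation in Python 3.11.15. Intervals from reads cover counting error only. Members and gene lists were chosen with earlier results of these data known. Of the lists, at most 3 genes called over both sexes are named by smallest adjusted p, with at most 2 uncalled ones of highest mean. Every gene of the carrier list is named. Some genes of these lists are not reported here. Hadhb, Sirt5, Ppargc1b, Acta1 and Slc22a17 were named after their values were seen.

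The alternatives were 5 or 0.5 in place of the added 1, filters at 50 or none, TMM or nuclear-read scaling, edgeR 4.0.16 and DESeq2 1.42.0 on recovered reads, each sex alone, a block for replicate number, leaving out each library, and WT female 3 with LCHADD female 2 left out. Other pairs of libraries were not left out, so how far results depend on the choice of this pair was not tested. The sex comparison within LCHADD, the ratios and the alternatives for Slc16a7, Slc16a1 and Bsg were added after seeing the data.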

Additional observations from a re-analysis of the deposited data

Results flagged for a closer look

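The genotype change of Bdh1 was marked because every LCHADD female library lay below the WT female mean while every LCHADD male library lay above the WT male mean. The change in females minus that in males was -0.74 on the log2 scale (SE 0.16). By limma it had an unadjusted p of 0.00029 and did not pass over all genes (adjusted p = 0.14, from 0.0038 to 0.44 over 22 alternatives). Summed cardiomyocyte markers were lower in LCHADD than in WT libraries of both sexes, and their part in this difference was not tested.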

How the results depend on the processing

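Over 23 alternatives in each sex and 22 in the mean, the fall of Acat1 passed throughout, in males with an adjusted p of up to 0.046. Scaling by nuclear reads gave Bdh1 -0.29 in females (adjusted p = 0.052), Aacs 0.38 in the mean of both sexes (adjusted p = 0.045), and, for LCHADD females minus LCHADD males, Oxct1 -0.27 and Acat1 -0.18, which did not pass. Without a filter these 2 sex differences were -0.33 and -0.24 and did not pass, and by edgeR that of Acat1 was -0.24 (adjusted p = 0.052). Same-numbered libraries of different groups did not deviate together (0 of 18 correlations over 0.1, from -0.11 to 0.05, and 5 of 18 highest with their own number), so the numbers do not pair them. With the replicate block Bdh1 in males was 0.38 (adjusted p = 0.051), Aacs in the mean 0.34 (adjusted p = 0.046), and the sex differences of Oxct1 and Acat1 within LCHADD -0.33 and -0.24 (adjusted p = 0.076 and 0.081). It called 4502 genes for females, 2016 for males and 5482 for the mean, against 4692, 2146 and 5661 without it.

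Without both WT female 3 and LCHADD female 2, the interaction was -0.86 for Bdh1 (adjusted p = 0.046) and -0.062 for Aacs against 0.20, Bdh1 in the mean was -0.05 against 0.01, and the sex differences within LCHADD were -0.26 for Oxct1 and -0.20 for Acat1, neither of which passed. That setting called 3317 genes in males and 9 for the interaction, and the male libraries alone called 3342. By edgeR Bdh1 in the mean was -0.001. The interaction, with 1 gene called and 1363 at an unadjusted p under 0.05, had 2 with a filter at 50, 2 by edgeR and 126 by DESeq2, which gave Bdh1 -0.72 and no adjusted p for Aacs.

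Leaving out each library in turn gave Bdh1 values of -0.43 to -0.29 for females, 0.29 to 0.52 for males, -0.034 to 0.082 in the mean and -0.88 to -0.65 for the interaction. It gave Oxct1 -0.27 to -0.10 in females and Aacs 0.24 to 0.40 in the mean. Within LCHADD, females minus males, it gave Oxct1 -0.43 to -0.26, Acat1 -0.27 to -0.20 and Aacs -0.268 to 0.026. Calls ran from 1317 to 3293 in males (1317 without LCHADD male 1 or WT male 3, 1332 without WT male 1, 3293 without LCHADD female 2) and from 0 to 186 for the interaction (0 without LCHADD female 1, WT female 2, WT female 3 or WT male 2, 69 without LCHADD male 3, 186 without LCHADD female 3). The causes of these shifts were not tested. Bdh2 failed the filter, and without it the log2 changes were -0.57 in females and -0.40 in males (SE 0.74 each, adjusted p = 0.68 and 0.85).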

Other observations

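Of 11 regulators of ketone metabolism 9 were tested, and 1 rose and 2 fell in females and 1 rose in males. The gene that rose was Fgf21, a fasting hormone that the nuclear receptor PPARalpha induces in liver. It had 168.4, 581.6 and 161.6 normalised reads in LCHADD female libraries 1, 2 and 3, against 0 to 1.71 in WT females. In males it had 137 to 163 in LCHADD and 0 to 3.70 in WT libraries. Rxra, the partner of PPARalpha, changed by -0.75 in females (limma adjusted p = 6.4e-05) and by -0.25 in males (adjusted p = 0.12). Sirt5, a mitochondrial desuccinylase named as the other fall, changed by -0.36 in females (adjusted p = 0.036). In the mean of both sexes 2 rose and 2 fell, the other rise being that of Ppargc1b (0.28, SE 0.10, limma adjusted p = 0.039), a coactivator of mitochondrial genes, and the other fall that of Sirt3, the mitochondrial deacetylase (-0.19, adjusted p = 0.027), while Esrra (-0.02) and Ppargc1a (0.35, adjusted p = 0.059) did not pass there. Of all tested genes 16.7% rose and 17.2% fell in females, 7.71% and 7.77% in males, and 20.3% and 20.6% in the mean.

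Receptors of ketone bodies and related acids were at the limit of detection. Hcar2, the 3-hydroxybutyrate receptor, had 0 reads in LCHADD and 4 in WT libraries, and Ffar3 had 0 in all 12. Hcar1 had 12 reads in LCHADD and 16 in WT libraries, and Ffar2 had 8 in LCHADD and 6 in WT libraries. By sex, Hcar1 had 3 reads in LCHADD and 12 in WT females, and 9 in LCHADD and 4 in WT males. Its ratio of normalised reads was 0.311 in females (exact 95% interval 0.056 to 1.15) and 2.47 in males (0.688 to 10.96).

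Of 9 genes of iron handling, listed because Bdh2 makes a siderophore, 3 rose in each sex and 0 fell. The shares of all tested genes that rose were 16.7% in females and 7.71% in males, and 17.2% and 7.77% fell. The ferritin chains Ftl1 (1.13 in females and 0.62 in males) and Fth1 (0.47 and 0.31) and the transferrin receptor gene Tfrc (0.70 and 0.87) rose on the log2 scale. Tfrc had 1179, 2079 and 949 normalised reads in LCHADD females, against 897, 1011 and 602 in WT females, so these groups overlapped and LCHADD female 2 stood above the rest. In LCHADD males Tfrc had 1737 to 2397, against 966 to 1231 in WT males, with no overlap. Ireb2 (0.09) and Aco1 (-0.01), which code for iron sensors, did not pass in the mean of both sexes. Slc22a17, a receptor of the siderophore-binding lipocalin, fell in that mean by 0.72 (SE 0.24, limma adjusted p = 0.027), with 9.2 to 21.4 normalised reads in LCHADD libraries and 17.3 to 41.5 in WT libraries.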
